A study of Arabidopsis thaliana with 4 samples.

Results

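The libraries of *ldl1-2 ldl2* and *suvr5-1* were compared directly, without Col-0, to find the genes that tell a histone demethylase mutant from a histone methyltransferase mutant. They are 2 of the 4 mRNA-Seq libraries of the series, with 1 library per genotype, and were chosen by their labels. Each came from poly(A) RNA of leaves, taken from plants that had grown for 3 weeks under long days. *suvr5-1* is a T-DNA insertion mutant of *SUVR5*, and *ldl1 ldl2* is a double mutant with the *ldl1-2* allele and a mutation in *LDL2*. All 4 genotypes share the Columbia (Col0) ecotype. The other libraries, the wild type Col-0 and the triple mutant *suvr5 ldl1 ldl2*, entered no test and are given as descriptions.

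SUVR5 is a SET-domain protein that binds DNA through zinc fingers and is required for methylation of histone H3 at lysine 9, a mark of silenced chromatin. LDL1 and LDL2 are plant relatives of human LSD1 and remove methyl groups from lysine 4 of histone H3, a mark of active genes. Both activities are tied to genes that are switched off, and LDL1 and LDL2 are best known for holding down the flowering repressor *FLC*.

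The authors deposited read positions and no counts per gene. The *suvr5-1* library held 15083462 mapped reads, 13444966 of them on the nuclear chromosomes, and the *ldl1 ldl2* library held 10406023 and 8826673. Reads ran past the ends of 4 chromosomes of the TAIR10.1 assembly, so the reads were mapped to another assembly. Genes were counted only in 6 stretches, 51.1 Mb or 42.9% of TAIR10.1, where the reads lay within 30 bp of the annotated exons. These stretches hold 17099 of the 37899 annotated genes, and 11852 of them had a read in either library. Reads on genes numbered 4895163 in *suvr5-1* and 2787319 in *ldl1 ldl2*, which is 36.4% and 31.6% of the nuclear reads. RPKM is the number of reads per kb of exon, scaled by the reads on genes of the library. No difference below has a replicate check, and the test on reads compares the libraries, not the genotypes. With 1 library per genotype, no interval includes the spread between plants. Reads carry no molecular identifier, so the intervals take repeated reads as independent counts and may be too narrow. Because whole leaves were sampled, fewer cells of a type and less RNA per cell cannot be told apart.

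*SUVR5* and *LDL1* lie outside the stretches and were not analysed here. *LDL2* (AT3G13682) was weakly detected, with 26 reads in *suvr5-1* (RPKM 1.88) and 8 in *ldl1 ldl2* (RPKM 1.02). The 95% interval of the difference ran from 0.814-fold to 4.73-fold lower in *ldl1 ldl2*. *LDL2* had an RPKM of 2.82 in Col-0 and 0.549 in the triple mutant.

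Genes counted as called if their RPKM differed by more than 4 fold and the reads gave a Benjamini-Hochberg adjusted P below 0.01 in Fisher's exact test (two-sided). A gene without reads in 1 library passed the fold limit by that alone, and its printed bound, with that library set at 3 reads, can lie under 4. With the bound itself held to the limit, 381 genes were higher and 256 lower. Of the 11852 genes, 418 were higher in *ldl1 ldl2* (3.53%) and 290 were lower (2.45%). At over 2 fold the numbers were 935 (7.89%) and 749 (6.32%). Higher genes made up 59.0% of the calls with the reads on genes as library size, and 44.3% (317 higher and 398 lower) with all nuclear reads. That second scale shifts the median log2 ratio of *ldl1 ldl2* over *suvr5-1* by -0.205. Among the 8226 genes with at least 10 reads in both libraries the median log2 ratio was -0.00466, with quartiles at -0.42 and 0.44.

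**Figure D1:**
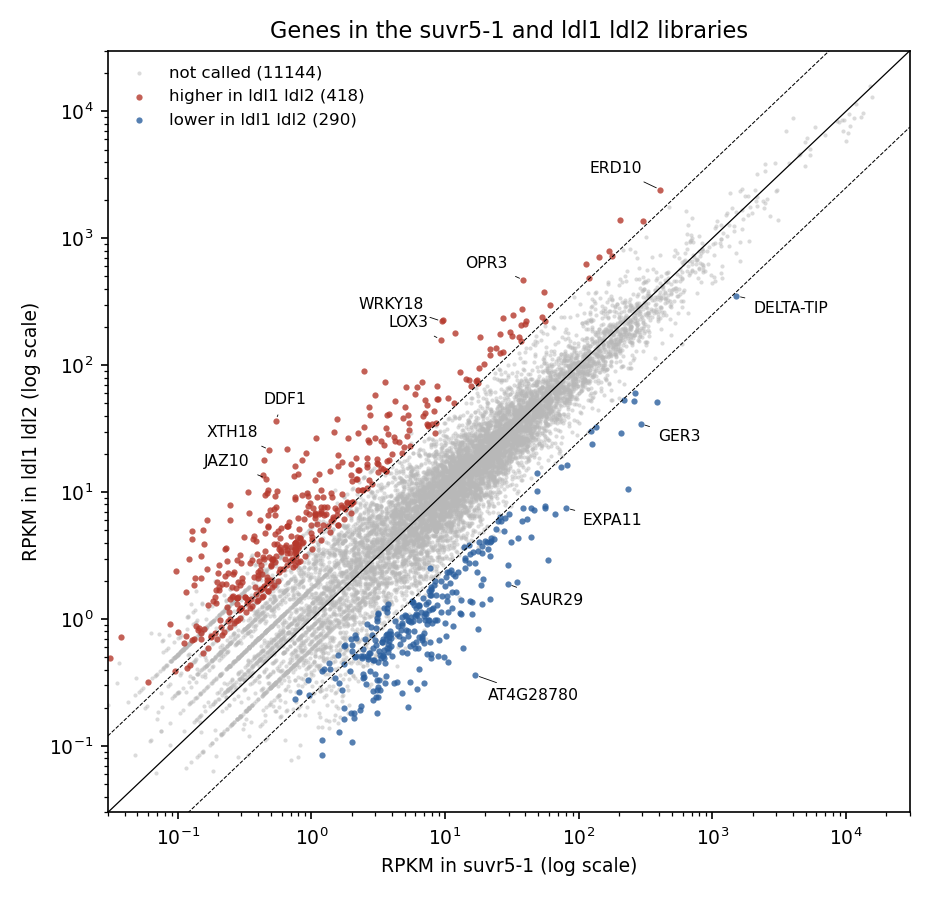
RPKM of the 11852 genes in *suvr5-1* (x axis) and *ldl1 ldl2* (y axis), both on log scales, with a library without a read set at 3 reads. The solid line marks equal RPKM and the dashed lines a 4-fold difference. The 418 red and 290 blue genes lie outside the dashed lines or have no read in 1 library, and *DDF1* and *XTH18* stand far above the line at low *suvr5-1* RPKM.

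Many calls rest on few reads. No read was found in *suvr5-1* for 159 of the 418 higher genes and none in *ldl1 ldl2* for 87 of the 290 lower genes. *ldl1 ldl2* had fewer reads on genes (2787319 against 4895163), so a call against no read takes fewer reads there than in *suvr5-1*. How far this shapes the numbers of higher and lower calls was not tested. The reads of 187 of the higher genes started at fewer than 5 different positions, and those of 28 at a single position, against 1 and 0 of the lower genes. *FWA*, a flowering gene that is normally silent in leaves and shares exon bases with another gene, was among them, with 6 reads in *ldl1 ldl2* from 1 position and none in *suvr5-1*. With each position counted once, 72 genes were higher and 77 lower. At least 100 reads in the library where the gene was higher stood behind 65 higher and 47 lower calls.

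**Figure D2:**
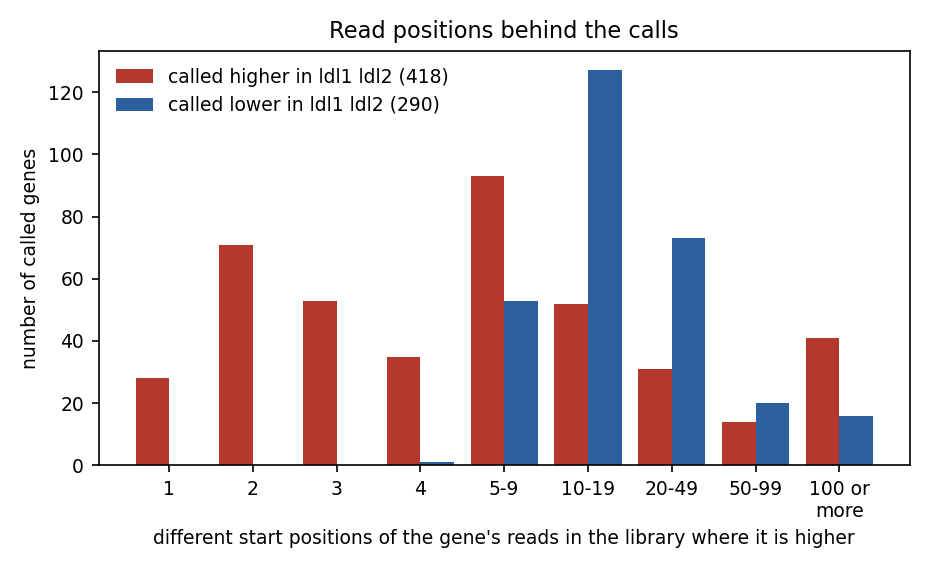
Number of called genes (y axis) by the number of different start positions of their reads in the library where they were higher (x axis). Genes higher in *ldl1 ldl2* (red, 418) pile up at few positions, with 187 under 5, while genes lower in *ldl1 ldl2* (blue, 290) have 1 under 5.

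Several jasmonate genes were higher in *ldl1 ldl2*. Jasmonate is a wound hormone made from a plastid fatty acid. It acts by the removal of JAZ repressors from the transcription factor MYC2, and MYC2 in turn switches on the *JAZ* genes. Of 18 genes tested from a list of 35, 8 were called higher and 1 lower, beside 3.53% and 2.45% of all genes tested, and the median log2 ratio was 1.58, beside -0.03 over all genes. All 8 were also called with each position counted once and at an assumed dispersion of 0.1 between plants, but at a dispersion of 0.2 only *LOX3* was. In the windows kept at a displacement of up to 10 bp, which hold fewer genes, 2 of the list were called higher.

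The biosynthetic genes came first. *LOX3* (AT1G17420), a lipoxygenase of the first step, had 140 reads in *suvr5-1* (RPKM 9.27) and 1371 in *ldl1 ldl2* (RPKM 159), 17.2-fold higher (95% interval 14.4 to 20.6). *OPR3* (AT2G06050), the reductase of the peroxisomal branch, had 322 reads (RPKM 38.6) and 2230 (RPKM 469), 12.2-fold higher (10.8 to 13.7). *OPCL1* (AT1G20510), which activates the product of that step for shortening, had 340 reads (RPKM 26) and 1304 (RPKM 175), 6.74-fold higher (5.97 to 7.61). In each of these genes Col-0 lay close to *suvr5-1*, at an RPKM of 6.07, 30.9 and 23.6, and the triple mutant lay between the compared libraries, at 49.3, 108 and 87.5.

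Signalling genes differed in the same direction. *MYC2* (AT1G32640) had 492 reads in *suvr5-1* (RPKM 30.6) and 1669 in *ldl1 ldl2* (RPKM 182), 5.96-fold higher (5.38 to 6.6). It shares exon bases with another gene. Of 6 *JAZ* genes tested, 4 were called higher and none lower, and none of them at a dispersion of 0.2. *JAZ1* (AT1G19180) had 161 and 833 reads (RPKM 18.2 and 166), and *JAZ5* (AT1G17380) had 74 and 459 (RPKM 6.76 and 73.6), which are 9.09-fold (7.67 to 10.8) and 10.9-fold (8.51 to 14.1) higher. *JAZ10* (AT5G13220), which shares exon bases with another gene, had 5 and 79 reads (RPKM 0.461 and 12.8). *JAZ8* (AT1G30135) had none in *suvr5-1* and 36 in *ldl1 ldl2* (RPKM 16.0), at least 21.1-fold higher against 3 reads. *JAZ3*, named after its values were seen, and *JAZ12* were not called, at log2 ratios of 0.64 and 0.24, so the difference was not shared by the whole family.

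Not every jasmonate gene was higher. *ST2A* (AT5G07010), a sulfotransferase of hydroxyjasmonate, had 115 reads in *suvr5-1* (RPKM 13.2) and 7 in *ldl1 ldl2* (RPKM 1.41), 9.35-fold lower (4.4 to 23.8). The allene oxide cyclase *AOC4*, named after its values were seen, passed only the 2-fold rule, at 504 and 131 reads and a log2 ratio of -1.13. *CLH1* and, named after its values were seen, *VSP2*, classic jasmonate-induced genes, passed it in the other direction, at log2 ratios of 1.18 and 1.58.

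The sequences before the starts of 2 of these genes are shown because they carry letters of well-known plant elements. *JAZ8* (TAIR10.1, chr1:10596102-10596351, plus strand) has a G-box (CACGTG, capitals), the element MYC2 binds, 10 bases before its start. *LOX3* (chr1:5977073-5977322, plus strand) has an evening element (AAAATATCT, capitals) 84 bases before its start.
JAZ8: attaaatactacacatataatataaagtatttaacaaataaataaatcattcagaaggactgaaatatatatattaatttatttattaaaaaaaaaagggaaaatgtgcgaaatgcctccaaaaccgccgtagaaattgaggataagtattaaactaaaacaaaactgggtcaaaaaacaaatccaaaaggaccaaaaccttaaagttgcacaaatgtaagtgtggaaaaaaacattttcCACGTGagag
LOX3: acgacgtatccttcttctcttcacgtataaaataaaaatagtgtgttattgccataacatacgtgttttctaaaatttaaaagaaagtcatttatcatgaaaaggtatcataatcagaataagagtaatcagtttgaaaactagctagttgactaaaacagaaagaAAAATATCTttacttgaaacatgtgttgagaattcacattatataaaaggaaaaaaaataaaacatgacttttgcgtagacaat
Of the 8 jasmonate genes called higher, 1 had a G-box and 2 an evening element in the 250 bases before to 50 after the start, on either strand, while 7.85% and 2.87% of all promoters of genes tested held these letters.

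**Figure D3:**
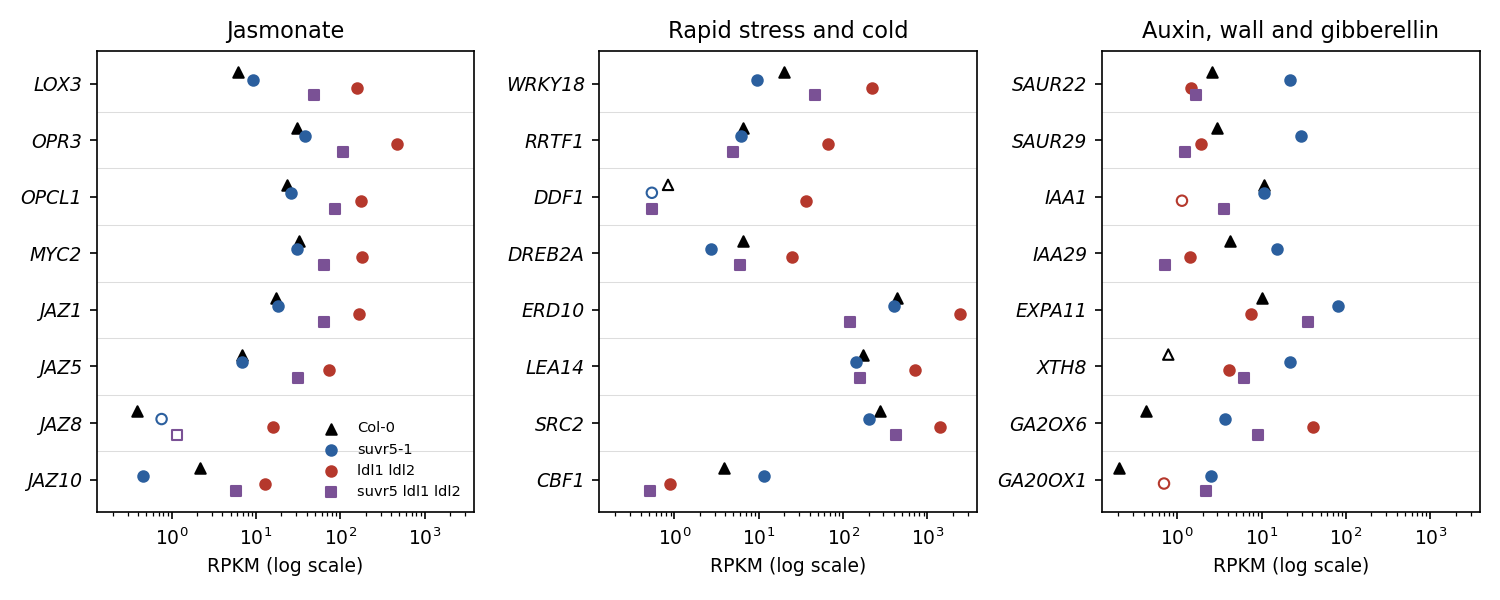
RPKM (x axis, log scale) of 24 genes in Col-0 (black triangles), *suvr5-1* (blue circles), *ldl1 ldl2* (red circles) and the triple mutant (purple squares), with open symbols where a library without a read was set at 3 reads. For all 8 jasmonate genes in the left panel the red circle lies to the right of the other symbols. In the middle panel *CBF1* and in the right panel all genes but *GA2OX6* have the red circle to the left of the blue one.

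Some fast stress genes were higher as well. Of 19 genes tested from a list of wound and elicitor responses, 4 were called higher and none lower, beside 3.53% and 2.45% of all genes. At over 2 fold 9 were higher, beside 7.89% of all genes, and 14 of the 19 had positive log2 ratios. *WRKY18* (AT4G31800), a transcription factor of basal defence, had 94 reads in *suvr5-1* (RPKM 9.47) and 1252 in *ldl1 ldl2* (RPKM 222), 23.4-fold higher (19 to 29.2). It was the only one of 30 *WRKY* genes called in either direction, and the median of that family was 0.08. AT1G15010 had 37 and 492 reads (RPKM 9.74 and 227), *RRTF1* (AT4G34410) had 42 and 258 (RPKM 6.19 and 66.8), and *MYB15* (AT3G23250) had 7 and 39 (RPKM 0.95 and 9.29). *RRTF1* shares exon bases with another gene. The triple mutant stayed near *suvr5-1* at *RRTF1* (RPKM 4.92) but not at *MYB15* (RPKM 12.3).

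Among factors and targets of the cold and drought response the libraries differed in both directions. Of 14 genes tested, 5 were called higher and 1 lower, beside 3.53% and 2.45% of all genes. With all nuclear reads as library size the counts were 4 and 2, with each position counted once 3 and 1, and at dispersions of 0.1 and 0.2 they were 4 and 0 and 1 and 0. *DDF1* (AT1G12610), a relative of the CBF factors known for dwarfism through gibberellin breakdown, had no read in *suvr5-1* and 116 in *ldl1 ldl2* (RPKM 36.7), at least 67.9-fold higher. Col-0 had none and the triple mutant 2. *DREB2A* (AT5G05410), a drought and heat factor that shares exon bases with another gene, had 22 and 114 reads (RPKM 2.72 and 24.8). *CBF1* (AT4G25490), a master factor of cold acclimation, went the other way, with 68 reads in *suvr5-1* (RPKM 11.4) and 3 in *ldl1 ldl2* (RPKM 0.884), 12.9-fold lower (4.23 to 64.1). Its neighbours, named after their values were seen, were lower too, *DREB1A* by the 2-fold rule at 92 and 14 reads, and *CBF2* not called at 117 and 38 reads.

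The abundant targets were divided. *ERD10* (AT1G20450), a dehydrin that protects cells from drying, had 3233 reads in *suvr5-1* (RPKM 407) and 10939 in *ldl1 ldl2* (RPKM 2417), 5.94-fold higher (5.71 to 6.18). *COR47*, the neighbouring dehydrin, had 5404 and 11321 reads, a log2 ratio of 1.88 that passed the 2-fold rule. The cold-induced *KIN2*, as abundant as *ERD10* in *ldl1 ldl2*, had a log2 ratio of -0.015, and *RD22*, a dehydration gene, was lower by the 2-fold rule at 6444 and 1788 reads. *KIN2* and *RD22* were named after their values were seen. Outside this list, *SRC2* (AT1G09070), named for a cold-regulated soybean gene, had 1594 and 6259 reads, and *LEA14* (AT1G01470), a late embryogenesis abundant protein, had 938 and 2691. These are 6.90-fold (6.53 to 7.29) and 5.04-fold (4.68 to 5.43) higher, and with *ERD10* they are the 3 higher genes with most reads. None of these 3 was called with each position counted once, and *LEA14* was not called at a dispersion of 0.1. The positions of a gene are limited, so counting each once narrows the ratios of abundant genes and cannot weigh these calls. *ERD10* had 1020 positions for its 10939 reads in *ldl1 ldl2*. *ERD10* was far lower in the triple mutant (RPKM 120) than in Col-0 (RPKM 431). AT3G02480, annotated as a protein of the same kind as *LEA14*, had 4 reads in *suvr5-1*, 46 in *ldl1 ldl2*, 185 in Col-0 and none in the triple mutant.

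The promoter of *LEA14* (chr1:172949-173198, minus strand) is shown for its evening element (capitals), 173 bases before the start, an element named for evening clock genes and also found before cold-induced genes.
LEA14: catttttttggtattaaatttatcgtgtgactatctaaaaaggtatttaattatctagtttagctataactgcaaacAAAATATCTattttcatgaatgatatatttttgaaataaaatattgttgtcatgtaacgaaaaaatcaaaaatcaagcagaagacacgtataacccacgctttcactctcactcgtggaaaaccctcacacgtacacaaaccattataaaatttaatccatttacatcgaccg
None of 10 clock genes tested was called, and their median log2 ratio was 0.08.

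Of 13 gibberellin genes tested, 2 were called higher and 1 lower, beside 3.53% and 2.45% of all genes. *GA2OX6* (AT1G02400), which inactivates gibberellin, had 27 reads in *suvr5-1* (RPKM 3.68) and 169 in *ldl1 ldl2* (RPKM 40.5), 11-fold higher (7.29 to 17.2). *GA20OX1* (AT4G25420), which makes it, had 19 reads and none, at least 3.61-fold lower. *RGL3*, a DELLA repressor of growth, had 30 and 79 reads, 4.62-fold higher (3.00 to 7.30). With each position counted once or at a dispersion of 0.1 only *GA2OX6* was called, and *GA20OX1* was also lost when its bound was held to the 4-fold limit. The DELLA genes *GAI* and *RGA1*, the most abundant of the list, had log2 ratios of -0.015 and 0.04.

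Some auxin-responsive growth genes were lower in *ldl1 ldl2*. Of 41 *SAUR* genes tested, a family of small proteins that promote cell elongation, 8 were called lower and none higher, beside 2.45% and 3.53% of all genes, and 12 were lower at over 2 fold. The median log2 ratio of the family was -0.92. *SAUR29* (AT3G03820) had 110 reads in *suvr5-1* (RPKM 29.6) and 4 in *ldl1 ldl2* (RPKM 1.89), 15.7-fold lower (5.95 to 58.5). *SAUR22* (AT5G18050) had 79 and 3 reads (RPKM 21.6 and 1.44), 15-fold lower (4.95 to 74.3). In Col-0 these genes had RPKM of 2.92 and 2.55, nearer to *ldl1 ldl2*. With each position counted once, 3 *SAUR* genes were called lower, at a dispersion of 0.1 between plants 1 was, and at 0.2 none was. Members of this family are alike in sequence and lie in clusters, so reads may be split among them.

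Other auxin families were split. Of 16 *Aux/IAA* repressor genes tested, 3 were called lower and none higher, beside 2.45% and 3.53% of all genes. At over 2 fold 3 were lower and 2 higher, beside 6.32% and 7.89%, and the family median log2 ratio was -0.07. With each position counted once 2 were called lower, at a dispersion of 0.1 between plants 1 was, and at 0.2 none was. *IAA29* (AT4G32280) had 96 and 5 reads (RPKM 15.3 and 1.40), 10.9-fold lower (4.53 to 34.4), and *IAA1* (AT4G14560) had 49 and none, at least 9.30-fold lower. *IAA7*, the most abundant, had 2048 and 1003 reads and a log2 ratio of -0.22. Of 8 *GH3* genes tested, whose enzymes couple hormones to amino acids, 2 were called higher and 1 lower, beside 3.53% and 2.45% of all genes. *BRU6* had 37 reads in *suvr5-1* and none in *ldl1 ldl2*. *DFL2*, which shares exon bases with another gene, had 259 and 749, and AT5G13350 had none and 8, from 2 positions. No *GH3* gene was called with each position counted once or at a dispersion of 0.1.

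**Figure D4:**
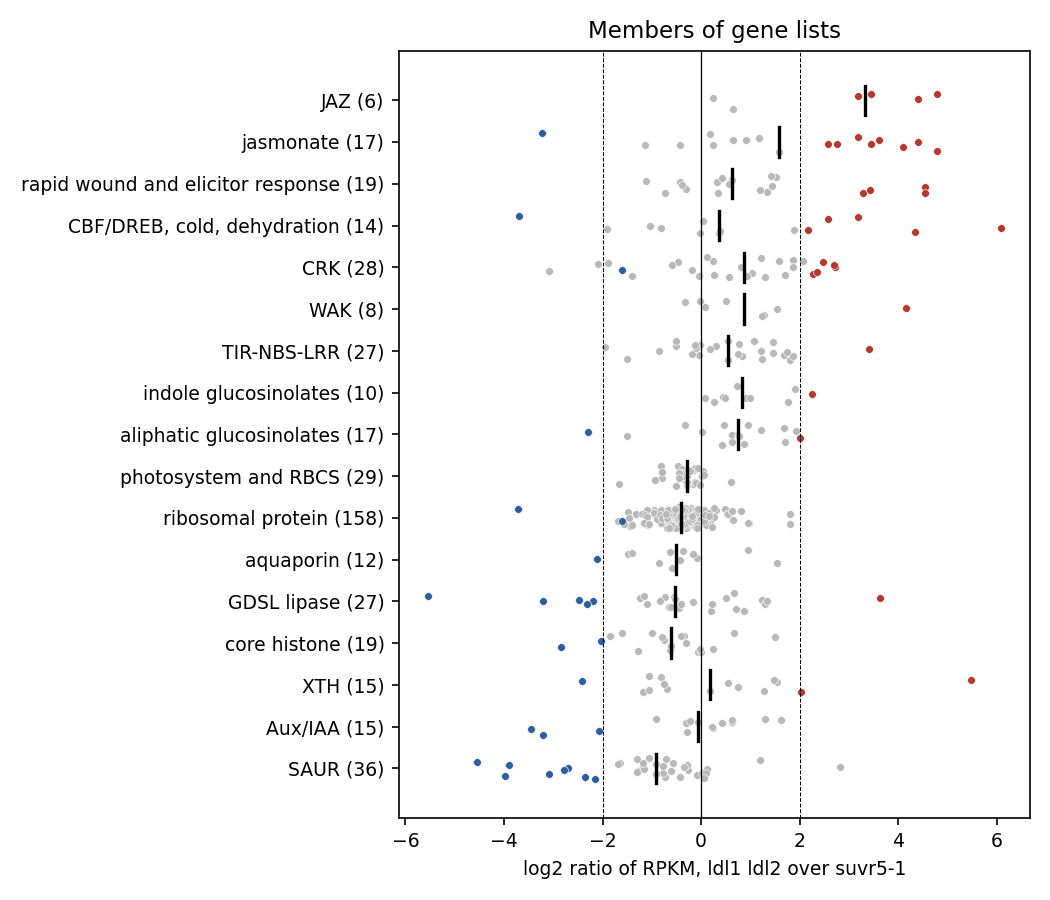
log2 ratio of RPKM, *ldl1 ldl2* over *suvr5-1* (x axis), of the members of 17 gene lists, 1 point per gene, with the number of members that have a ratio in parentheses. Black bars are medians, dashed lines a 4-fold difference, red and blue points genes called higher and lower. The *JAZ* and jasmonate medians (3.31 and 1.58) lie to the right and the *SAUR* median (-0.92) to the left.

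Single genes of the expanding cell wall and of water channels were called. *EXPA11* (AT1G20190), an expansin that loosens walls, had 531 reads in *suvr5-1* (RPKM 80.8) and 28 in *ldl1 ldl2* (RPKM 7.49), 10.8-fold lower (7.39 to 16.4). It was the only called gene of 9 expansins tested, beside 2.45% lower and 3.53% higher of all genes. The expansin median log2 ratio was -0.12. *XTH8* (AT1G11545), of the enzymes that cut and rejoin xyloglucan, had 131 and 14 reads, 5.33-fold lower (3.06 to 10.0). *XTH18* (AT4G30280) of that family had none in *suvr5-1* and 76 in *ldl1 ldl2*, at least 44.5-fold higher. Of 16 xyloglucan enzyme genes tested, 2 were called higher and 1 lower, beside 3.53% and 2.45% of all genes, and the median log2 ratio was 0.18. The reads of *XTH29*, the other higher gene, started at 3 positions. With each position counted once 1 gene was called higher and 1 lower. *DELTA-TIP* (AT3G16240), the vacuolar water channel and the lower gene with most reads, had 8820 and 1163 reads (RPKM 1515 and 351), 4.32-fold lower (4.06 to 4.59), and shares exon bases with another gene. It was the only called gene of 13 aquaporins tested, beside 2.45% lower and 3.53% higher of all genes. *DELTA-TIP* was not called with each position counted once, a count that narrows the ratios of abundant genes. Col-0 (RPKM 183) lay below both.

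Of 32 GDSL lipase genes tested, 5 were called lower and 1 higher, beside 2.45% and 3.53% of all genes. With each position counted once or at a dispersion of 0.1 the lower calls numbered 2, and at 0.2 there were none. AT4G28780, of this family, had 164 reads in *suvr5-1* (RPKM 16.9) and 2 in *ldl1 ldl2* (RPKM 0.362), 46.7-fold lower (12.7 to 389), the largest ratio of the lower genes with at least 100 reads. AT4G29905, a protein of unknown function, had 819 and 21 reads (RPKM 235 and 10.6), 22.2-fold lower (14.4 to 36.1), and was the lower gene called also at a dispersion of 0.2. *GER3* (AT5G20630), a germin of the cell wall, had 1445 and 97 reads (RPKM 293 and 34.5), 8.48-fold lower (6.90 to 10.5). *GER3* had an RPKM of 10.7 in Col-0 and 156 in the triple mutant.

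Core histone genes, of which some but not all are most active while DNA is copied, were lower in part. Of 21 tested, 2 were called lower and none higher, beside 2.45% and 3.53% of all genes. At over 2 fold 6 were lower, beside 6.32% of all genes. No core histone gene was called at a dispersion of 0.1. AT5G10400 had 214 reads in *suvr5-1* (RPKM 55.6) and 17 in *ldl1 ldl2* (RPKM 7.76), 7.17-fold lower (4.37 to 12.5), and AT1G09200 had 818 and 114 (RPKM 219 and 53.5), 4.09-fold lower (3.36 to 5.01). The triple mutant was above both libraries, at RPKM of 105 and 381. AT4G40040 and AT4G40030, the most abundant members, had log2 ratios of 0.24 and -0.008. *CDC20.1* (AT4G33270), an activator of chromosome separation, had 25 reads in *suvr5-1* and none in *ldl1 ldl2*. The list of 4 dividing-cell markers tested summed to 53 reads in *suvr5-1* and 6 in *ldl1 ldl2*, and its part in the histone values was not tested.

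Defence genes were mixed. Of 32 cysteine-rich receptor kinases (*CRK*), 5 were called higher and 1 lower, beside 3.53% and 2.45% of all genes, and at over 2 fold 12 were higher and 1 lower, beside 7.89% and 6.32%. *CRK10* (AT4G23180), which shares exon bases with another gene, had 320 and 878 reads (RPKM 25.7 and 124), 4.82-fold higher (4.24 to 5.49). None of these calls remained with each position counted once. Of 28 TIR-NBS-LRR resistance genes, 1 was called higher and none lower, a share near that of all genes (3.53%). At over 2 fold 9 were higher and none lower, beside 7.89% and 6.32% of all genes. *CRK* genes lie in a cluster and TIR-NBS-LRR genes are alike in sequence, so reads may be split among members. Of 14 salicylic acid genes tested, 1 was called higher and 1 lower, beside 3.53% and 2.45% of all genes. *GRX480* (AT1G28480), a glutaredoxin induced by that hormone, had 148 and 480 reads (RPKM 36.7 and 209), 5.70-fold higher (4.73 to 6.90). *UGT76B1* (AT3G11340), which couples sugar to salicylic acid, had 17 and none, at least 3.23-fold lower, and *NIMIN1*, named after its values were seen, was lower by the 2-fold rule at 45 and 7 reads. Neither *GRX480* nor *UGT76B1* was called with each position counted once or at a dispersion of 0.1. *UGT76B1* was also lost when its bound was held to the 4-fold limit. The median of the 14 genes was -0.19.

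Genes of secondary metabolism are given by pathway. *TT4* (AT5G13930), the chalcone synthase that begins flavonoid synthesis, had 369 reads in *suvr5-1* (RPKM 44.3) and 21 in *ldl1 ldl2* (RPKM 4.42), 10.0-fold lower (6.45 to 16.4), and shares exon bases with another gene. No other of 10 flavonoid genes was called. Among 17 genes for aliphatic glucosinolates, defence compounds of the cabbage family, *AOP2* was higher (37 and 85 reads) and *IMS2* lower (26 and none). That is 1 call in each direction, beside 3.53% higher and 2.45% lower of all genes. At over 2 fold 4 were higher and 1 lower, beside 7.89% and 6.32% of all genes. Of the 17, 14 had positive log2 ratios, and their median was 0.74. Neither call remained with each position counted once, and *AOP2* was not called with all nuclear reads as library size. The 10 indole glucosinolate genes with a ratio had positive log2 ratios with the reads on genes as library size, with a median of 0.82, but *IGMT4*, the lowest at 0.07, was at -0.13 with all nuclear reads. *IGMT3*, with 7 and 19 reads, was the only one called, and was not called with each position counted once. *CYP83B1*, of the core pathway, had 2256 and 4359 reads and a log2 ratio of 1.76, which passed the 2-fold rule.

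The flowering repressor *FLC* (AT5G10140) had 7 reads in *suvr5-1* (RPKM 1.21) and 30 in *ldl1 ldl2* (RPKM 9.12), 7.53-fold higher (3.24 to 20.3). It shares exon bases with another gene, and strand was not used. The call held with each position counted once but not at a dispersion of 0.1 between plants, with *FLC* reads at 3 and 14 positions. *FLC* had an RPKM of 0.269 in Col-0 and 11.5 in the triple mutant, so both libraries that carry *ldl1 ldl2* were above both that do not. *FLD*, a relative of LDL1 that also holds down *FLC*, was lower by the 2-fold rule at 98 and 26 reads, and also shares exon bases. *FT* and *SOC1* were not analysed here.

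The promoters of *HSP70* (AT3G12580), *CRK10* and *IAA29* are shown because they hold TACTAGTA (capitals), the octamer recognized by the zinc fingers of SUVR5. They lie at chr3:3993887-3994136 (minus strand), chr4:12137745-12137994 (plus strand) and chr4:15583082-15583331 (plus strand), and the octamer begins 219, 216 and 176 bases before the start.
HSP70: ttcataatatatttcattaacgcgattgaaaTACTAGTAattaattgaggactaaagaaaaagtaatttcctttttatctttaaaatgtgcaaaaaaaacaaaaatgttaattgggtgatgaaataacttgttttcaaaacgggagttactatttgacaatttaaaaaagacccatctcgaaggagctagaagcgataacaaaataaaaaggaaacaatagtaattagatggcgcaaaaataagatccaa
CRK10: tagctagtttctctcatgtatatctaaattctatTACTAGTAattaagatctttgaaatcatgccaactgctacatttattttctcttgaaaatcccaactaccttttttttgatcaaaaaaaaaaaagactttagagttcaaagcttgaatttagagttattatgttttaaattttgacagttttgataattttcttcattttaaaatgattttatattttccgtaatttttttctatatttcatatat
IAA29: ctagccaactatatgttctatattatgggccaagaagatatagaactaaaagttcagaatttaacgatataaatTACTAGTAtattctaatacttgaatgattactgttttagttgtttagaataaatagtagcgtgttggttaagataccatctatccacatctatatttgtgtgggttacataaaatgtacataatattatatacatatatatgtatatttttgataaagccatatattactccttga
*HSP70*, a chaperone, had 67 and 162 reads and was 4.25-fold higher (3.17 to 5.73) in *ldl1 ldl2*, as *CRK10* was, while *IAA29* was lower. *HSP70* was not called with all nuclear reads as library size, with each position counted once or at a dispersion of 0.1. The octamer was in the promoters of 6 of the 418 higher genes (1.44%), 2 of the 290 lower genes (0.69%) and 103 of all 11852 (0.869%). Of the 65 higher genes with at least 100 reads 3 held it (4.62%), and none of the 47 such lower genes. With up to 1 mismatch the shares were 14.1%, 14.1% and 14.3%. The W-box core (TTGAC), which WRKY proteins bind, was in 48.3%, 52.4% and 50.2%, and the drought and cold element core (CCGAC) in 14.4%, 13.1% and 16.1%. The TGA core (TGACG, which may overlap the W-box core) was in 26.8%, 23.1% and 23.9%, and the auxin element (TGTCTC) in 16.7%, 14.1% and 13.9%. The GCC box (GCCGCC) was in 3.59%, 3.45% and 3.10%. The G-box was in 8.37%, 7.59% and 7.85%, and the evening element in 3.59%, 3.45% and 2.87%. Of the 65 higher and 47 lower genes with at least 100 reads, the G-box was in 12.3% and 8.51%. In these genes the evening element was in 6.15% and 0.0%, CCGAC in 21.5% and 17.0%, and the GCC box in 0.0% and 2.13%. These shares are descriptions, and a match is not a binding site.

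Few genes of photosynthesis and translation were called, but most had negative log2 ratios. None of 29 photosystem and Rubisco small subunit genes was called, at 4 or 2 fold, their median log2 ratio was -0.29 and 4 were positive. Of 161 ribosomal protein genes, 2 were called lower and none higher, beside 2.45% and 3.53% of all genes. At over 2 fold 17 were lower and 2 higher, beside 6.32% and 7.89% of all genes. The ribosomal protein median was -0.41, and 25 of the 158 with a ratio were positive. Markers of phloem and xylem (7 genes), guard cells (4) and senescence (3) had no called gene. The photosystem and Rubisco genes took 1105533 of the reads on genes in *suvr5-1* and 554676 in *ldl1 ldl2* and were abundant in both. Of 5 flower genes tested *SEP1* was called higher, with 9 reads against none, and the list summed to 42 reads in *suvr5-1* and 70 in *ldl1 ldl2*. The 2 root markers of 5 that lie in the stretches had no read in either library.

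Of 270 pseudogenes 31 were called higher and 6 lower, and of 580 lncRNAs 32 were higher and 13 lower, beside 3.53% and 2.45% of all genes. The difference between the directions depended on the processing. With all nuclear reads the lncRNA counts were 20 and 17, with at least 5 positions 15 and 13, and with each position counted once 4 and 2. The pseudogene counts were 23 and 7, 8 and 6, and 1 and 0 in the same order. The reads of 23 of these 31 pseudogenes and 17 of these 32 lncRNAs started at fewer than 5 positions. A call against no read also takes fewer reads in *ldl1 ldl2* than in *suvr5-1*. The lncRNA gene AT4G08985, which shares exon bases with another gene, had 8 reads in *suvr5-1* and 166 in *ldl1 ldl2* (RPKM 2.47 and 90.1), from 62 positions.

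The libraries left out of the comparison place these genes. Of the 65 higher genes with at least 100 reads, Col-0 lay nearer to *suvr5-1* on the log scale at 57 (87.7%) and the triple mutant at 43 (66.2%). Of the 47 lower genes with that many reads, Col-0 lay nearer to *ldl1 ldl2* at 28 (59.6%) and the triple mutant at 17 (36.2%). Over all 418 higher genes, Col-0 lay nearer to *suvr5-1* at 306 (73.2%) and the triple mutant at 266 (63.6%). Over all 290 lower genes, Col-0 lay nearer to *ldl1 ldl2* at 138 (47.6%), which is not the majority, and the triple mutant at 91 (31.4%). The genes were chosen as extremes of the compared libraries, which by itself draws other libraries towards the middle, and these counts carry no test.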

How the data were processed

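Leaf mRNA of 4 genotypes was sequenced, with 1 library each, and 2 libraries are compared here. The authors deposited, for each mapped read, its chromosome, strand and leftmost position, and no gene counts. Their processing notes name Bowtie; its version and the assembly these reads were mapped to are not given in the sources used here. Of 478 windows of 250 kb, 205 were kept in which reads lay within 30 bp of TAIR10.1 exons (RefSeq annotation, z of at least 5). Positions were counted on merged exons without regard to strand, so overlapping and antisense genes cannot be told apart, and scaled to RPKM by the reads on genes. Calls used Fisher's exact test (two-sided) on reads, Benjamini-Hochberg adjustment over 11852 genes, P under 0.01 and a ratio over 4. A library without a read passed the fold limit by that alone, and was set at 3 reads for the printed ratios, written as "at least". Intervals are exact 95% intervals that take every read as an independent count.

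Python 3.11.15, NumPy 2.4.6, pandas 2.3.3, SciPy 1.17.1 and matplotlib 3.10.9 were used. The calling step was also run on simulated independent counts. Those had no repeated positions and no spread between plants, so they cannot show how reliable the calls are here. Genes were named by rule: the mutated genes, *FLC*, *FT* and *SOC1*; the 15 called genes with the largest ratio in each direction among those with at least 100 reads; the 5 with most reads in each direction; and the called and 2 most abundant members of each list. Genes named otherwise are said to be so. Members and lists were chosen with earlier results of these data known. Promoters (250 bases before to 50 after the start) come from RefSeq TAIR10.1. Alternatives changed library size, repeated positions, filter, region, displacement, overlap, test and fold.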

Additional observations from a re-analysis of the deposited data

How the results depend on the processing

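No paired analysis was possible because each genotype has 1 library and no replicate number. Against 418 higher and 290 lower genes, counting each position once gave 72 and 77, an assumed dispersion between plants of 0.1 gave 70 and 30 and of 0.2 gave 10 and 1, and a 2-fold limit gave 935 and 749. With at least 5 positions required, chosen after seeing the data, 231 were higher and 289 lower, so that the higher genes were no longer the majority. All nuclear reads as library size gave 317 and 398 and moved the higher share from 59.0% to 44.3%. Of 109 called genes among those named, 102 kept their call with all nuclear reads and 106 with introns included. With each position counted once, 53 of the 100 that could be compared did. The cause of these changes was not tested. Repeated positions, 42.9% of the assembly analysed and 1 library per genotype limit every call.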
